A study of Mus musculus with 12 samples.

Results

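The regions described here are short genomic intervals, nearly all 25 bases long, that lie within or just beyond the 3′ untranslated region (3′ UTR) of a gene and carry a transposon annotation. They were chosen from the deposited interval counts by the nearby 3′ UTR named for each interval and by 7 repeat families: B2, Alu, B4, L1, ERVK, ERV1 and ERVL-MaLR. The rule used no measured value. It found 3550 of 205977 intervals, near 2740 genes. Of these, 1660 lay inside the annotated 3′ UTR and 1890 in the window of up to 2 kb beyond it. Alu held 1207 of them, B2 991, ERVL-MaLR 413, L1 343, ERVK 294, B4 230 and ERV1 72.

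The RNA came from dissociated dorsal root ganglia (DRG) of lumbar levels L4 to L6 of mice that carry Adv-Cre, in which the Advillin gene drives Cre recombinase in sensory neurons, and the Ribotag allele, which then adds an HA tag to the ribosomal protein Rpl22. All 4 groups carried both alleles. One sciatic nerve was crushed, and injured and naive ganglia were taken 3 days later from each animal, so naive ganglia may be those of the other side of a crushed mouse. RNA bound to tagged ribosomes (IP) and RNA of the whole ganglion before the immunoprecipitation (input) were sequenced from injured and from naive ganglia, with 3 libraries in each of the 4 groups. The design text speaks of 4 mice, and the age and sex of the animals are not given in the sources used here. In all 12 libraries the 20 sensory neuron markers were detected, at a summed level of 18880 to 26360 CPM (counts scaled to the library total).

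B1, which mouse annotations list in the Alu family, B2 and B4 are short interspersed elements that RNA polymerase III can transcribe from a promoter of their own. L1 is a long interspersed element that encodes its own copying machinery, which short elements also use, and ERVK, ERV1 and ERVL-MaLR are remnants of retroviruses with long terminal repeats. Copies that landed in a 3′ UTR are transcribed by RNA polymerase II as part of the messenger RNA, and some bring a polyadenylation signal, the hexamer AATAAA or ATTAAA that directs cleavage of the transcript and addition of its tail. A read over such a copy may therefore come from the host gene's messenger RNA or from a transcript of the element, and the counts do not separate these. How a read that matches many copies was counted, how the intervals were selected, and whether positions count from 0 or 1 are not given in the sources used here, so the count of a single copy is uncertain and positions stand as deposited (mm10).

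The intervals that the results turn on, and that lie within an annotated exon, read as follows in GENCODE M21 transcripts (GRCm38), 5′ to 3′ on the strand of the gene, with the hexamers AATAAA and ATTAAA in capitals. The first 7 are intervals that changed after crush. That of Plin3 differed between IP and input, and that of Kcns1 shows the AATAAA common in its family.
Scpep1 ERVK: cttttcccatcAATAAAtgtgttgt
Rmnd1 Alu: aactgtctcaaAATAAAacacaaat
Adam19 Alu: aggaagttccaagactgccagggcc
Ildr2 B4: gatactctgccttaaagaaccaaac
Mpv17l B2: agtgtacttacatttAATAAATAAA
Dennd5b B2: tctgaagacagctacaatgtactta
Rasgrp1 Alu: ggacagcaagggatatgctgagaaa
Plin3 ERV1: gtattgccttAATAAAttttatatg
Kcns1 ERVL-MaLR: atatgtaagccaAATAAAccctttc

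These intervals lie at chr11:88924030-88924055 (minus strand) for Scpep1, chr10:4403177-4403202 (minus) for Rmnd1, chr11:46146318-46146343 (plus) for Adam19 and chr1:166314962-166314987 (plus) for Ildr2. Those of Mpv17l, Dennd5b and Rasgrp1 lie at chr16:13949309-13949334 (plus), chr6:148990111-148990136 (minus) and chr2:117280971-117280996 (minus). Those of Plin3 and Kcns1 lie at chr17:56278972-56278997 (minus) and chr2:164163626-164163651 (minus). All 9 lie inside a 3′ UTR, and all 3550 intervals were listed on the strand of their gene.

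Transposon intervals in 3′ UTR windows held a polyadenylation hexamer far more often than the 3′ UTRs around them, but less often than repeat-free intervals in such windows. Of the 1848 intervals whose 25 bases could be read from a transcript, 27.4% contained AATAAA or ATTAAA, against 3.26% of all 3336151 windows of 25 bases in the 3′ UTRs of the same 1388 transcripts. Intervals in 3′ UTR windows that carry no repeat held one in 39.7% of 27559. On the other strand the intervals held AATAAA in 0.649% and ATTAAA in 0.974%, and 14 intervals held both motifs on the gene's strand. The share of A rose along the interval, from 32.2% of the first 10 bases to 43.6% of the last 10.

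The 7 families differed widely in this feature. ERV1 intervals held a hexamer in 64.6% of 48, ERVL-MaLR in 51.7% of 232, B2 in 36.6% of 413, ERVK in 35.4% of 175, L1 in 31.0% of 187 and B4 in 24.5% of 163, but Alu in 7.14% of 630. Single words of 10 bases recurred within a family: acagagaaac stood in 23.3% of Alu intervals, acagtgtact in 14.0% of B2 and cccaattaaa in 7.76% of ERVL-MaLR. A match is a description of the letters and shows no use of a site.

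A similar order of families appeared in how often an interval stood near an annotated transcript end. Among intervals inside the 3′ UTR, 33.8% of 1539 lay within 25 bases of an annotated 3′ end of their gene, with a median distance of 224 bases. Repeat-free intervals inside 3′ UTRs did so in 44.3% of 30221, with a median distance of 46 bases. By family the share was 57.1% for ERV1, 56.9% for ERVL-MaLR, 43.2% for ERVK, 37.5% for L1, 34.1% for B2, 30.9% for B4 and 19.2% for Alu. Beyond the 3′ UTR it was 6.85% of 1751.

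**Figure D1:**
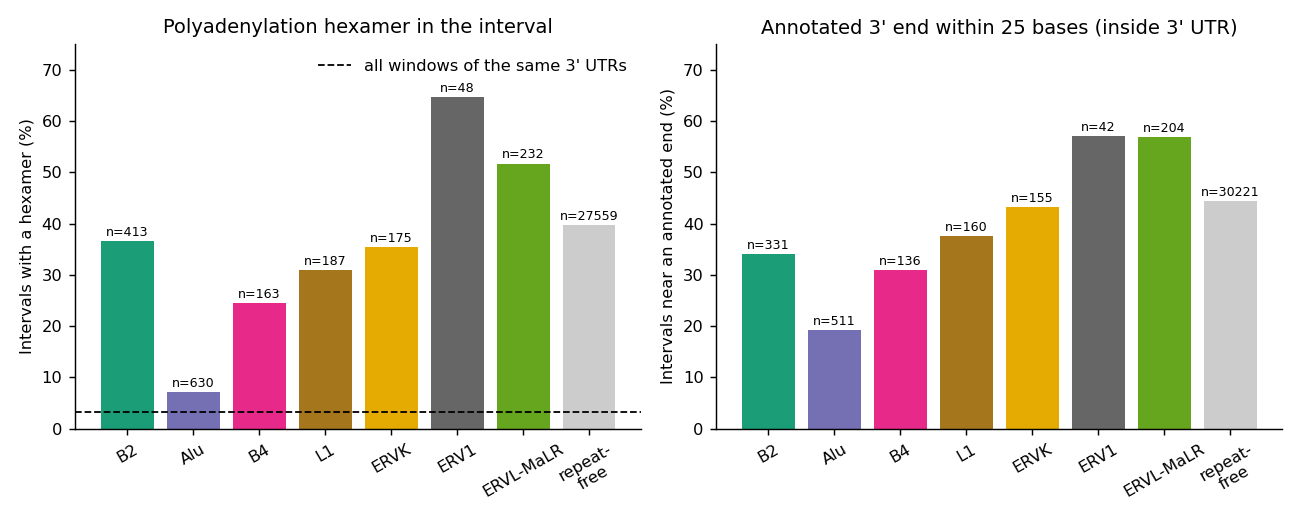
Share of transposon intervals in 3′ UTR windows that contain a polyadenylation hexamer on the gene's strand (left, percent) and share of those inside the 3′ UTR that lie within 25 bases of an annotated 3′ end (right, percent), by family, with the number of intervals above each bar and repeat-free intervals in grey at the right. ERV1 and ERVL-MaLR are highest and Alu is lowest in both panels, and the dashed line on the left marks the 3.26% of all windows of the same 3′ UTRs.

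Most of these intervals were read rarely. No count was recorded in any library for 578 of them, and 1004 of 3550 (28.3%) passed the filter on low counts, 780 inside and 224 beyond the 3′ UTR. Repeat-free intervals in 3′ UTR windows passed in 52.3% of 36770, and intervals of the same families outside such windows in 1.38% of 145162. By family the share that passed was 49.1% for B4, 41.6% for ERVL-MaLR, 32.6% for Alu, 21.2% for B2, 20.8% for ERV1, 20.1% for ERVK and 12.2% for L1. The median level of those that passed was 3.51 CPM, which is 19.3 reads per library. Intervals that passed held a hexamer less often, in 19.5% of 822, than those that did not, in 33.8% of 1026. Of the tested intervals, 89 also lay in an exon of another named gene and are uncertain for that reason.

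The interval counts summed to 2876172 to 4093999 per library in IP and 6186827 to 10585319 in input, and the gene counts to 29436945 to 41990355. The intervals described here took 1.19% to 1.61% of the interval counts in IP and 0.346% to 0.725% in input, and levels of intervals and of genes are scaled within their own table. Both input libraries numbered 3 stood apart: reads of these intervals, scaled by the total of the gene counts, came to 1176 and 1066 CPM in them, against 1360 to 1478 in the other 4 input libraries and 1262 to 1377 in IP. Counts of calls that moved or changed their split without these libraries are given with and without them.

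Napb, which encodes a protein that takes apart membrane fusion complexes, carried the highest B2 interval, at 142, 161 and 145 CPM in naive IP, 162, 169 and 149 in injured IP, 132, 132 and 93.3 in naive input, and 130, 144 and 82.2 in injured input. Both input libraries numbered 3 were the lowest of the 12, and no comparison of it was called. Its 3′ UTR also held an Alu interval of 84.7 to 170 CPM. The highest Alu interval was that of Scd2, a fatty acid desaturase, at 150 to 180 CPM over the 6 IP libraries and 210 to 256 CPM over the 6 input libraries. In naive ganglia its IP level differed from its input level by -0.52 on the log2 scale (SE 0.138, adjusted p = 0.0123), and the gene by -0.42. The highest intervals of the other families were those of Arl1, a small GTPase of the Golgi (B4, 55.7 to 89.7 CPM), Armcx3, a mitochondrial protein (L1, 16.2 to 44.6), Lztr1 (ERVK, 43.5 to 73.4), Syn2, a synaptic vesicle protein (ERV1, 25.2 to 38.4), and Acat2, an acetyl transferase of lipid metabolism (ERVL-MaLR, 59.5 to 98.6).

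The first comparison asked which of these intervals changed after crush in RNA bound to tagged ribosomes (IP). Of the 1004 tested, 5 rose and 1 fell, which is 0.598%, against 2.44% of all 24100 intervals tested (adjusted p under 0.05, edgeR's quasi-likelihood test). Their median change was 0.01 on the log2 scale, and 77 had an unadjusted p under 0.05. The 5 that rose belonged to 4 families, and 4 of the 5 followed a gene that rose as well. Ildr2 and Fgf3 lay under the level set for named intervals and are named here after their values were seen. Markers of other cells were also read in IP. The 9 macrophage markers summed to 19.16 to 44.89 CPM in naive and 33.15 to 100.7 CPM in injured IP, and 3 rose. Of the 10 satellite glia markers (515.2 to 973.8 and 847.9 to 1307 CPM), 1 rose. No Schwann cell, fibroblast or endothelial marker was called. Of the 20 sensory neuron markers (25480 to 26360 and 24100 to 25100 CPM), 1 rose and 9 fell. Their part in the interval results was not tested.

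Scpep1, a secreted serine carboxypeptidase, carried an ERVK interval at 0.975, 2.13 and 0.880 CPM in naive IP and 7.48, 8.78 and 5.43 CPM in injured IP. In input it stood at 2.80, 3.57 and 3.82 CPM in naive and 8.50, 6.16 and 8.59 CPM in injured ganglia. The groups did not overlap in either fraction. It rose by 2.42 in IP (SE 0.376, adjusted p = 8.74e-05) and by 1.18 in input (adjusted p = 0.0486), while the gene rose by 2.03 and 1.49. The call in input was lost without any 1 of 11 of the 12 libraries (adjusted p 0.0523 to 0.183), and that in IP was kept under all 21 alternatives.

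Rmnd1, a protein of mitochondrial translation, carried an Alu interval at 5.85, 4.98 and 7.21 CPM in naive IP and 15.6, 11.2 and 13.6 CPM in injured IP. In input it stood at 7.40, 7.83 and 7.84 CPM in naive and 14.4, 14.3 and 16 CPM in injured ganglia. Every injured library was above every naive one. The interval rose by 1.16 in IP (SE 0.238, adjusted p = 0.00339) and by 0.95 in input (SE 0.235, adjusted p = 0.0191). The change of the gene, at 1.65 to 2.96 CPM, was 0.18 in IP and 0.31 in input and was not called in either (adjusted p = 0.574 and 0.314). Set against its gene, the interval was higher by 0.95 in IP, which did not pass over all intervals (adjusted p = 0.158). The call in input was lost without naive input library 1 or 2 (adjusted p = 0.0825 and 0.0645).

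Adam19, a membrane-bound metalloprotease, carried an Alu interval at 17.4 to 19.3 CPM in naive and 29 to 30.5 CPM in injured IP, and at 8.64 to 14.8 and 17.7 to 23.3 CPM in input. It rose by 0.71 in IP and 0.76 in input (adjusted p = 0.0446 and 0.0411), beside 0.72 and 0.65 for the gene. Leaving out 1 library ended the call in IP for 6 of the 12 and in input for 9 (adjusted p up to 0.227 and 0.204). Ildr2, an immunoglobulin-like membrane protein, carried a B4 interval at 1.17, 1.24 and 1.76 CPM in naive and 4.46, 3.67 and 5.75 CPM in injured IP. It rose by 1.71 (adjusted p = 0.0258), beside 1.80 for the gene, and the call was lost for 5 of the 12 libraries left out (adjusted p 0.0689 to 0.166).

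Fgf3, a fibroblast growth factor, had an ERVL-MaLR interval beyond its 3′ UTR with 2 reads over the 3 naive IP libraries and 72 over the 3 injured ones. In input it had 1 read in naive and 50 in injured ganglia. The ratio of injured to naive, corrected for depth, was 31.5 in IP (95% interval 8.40 to 265.0) and 55.1 in input (9.44 to 2220), where the intervals cover counting error only. The interval rose in both fractions (adjusted p = 8.93e-05 and 0.000108), and so did the gene. Its naive counts are too low to set the size of the change.

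Chp2, a calcium-binding regulator of sodium-proton exchangers, carried the interval that fell. This ERVL-MaLR interval beyond its 3′ UTR stood at 7.21, 13.2 and 10.7 CPM in naive and 5.57, 3.51 and 4.31 CPM in injured IP. It fell by 1.21 (SE 0.294, adjusted p = 0.0175), beside a fall of the gene by 0.75. The call was lost without IP library 2 or 3 of either condition (adjusted p 0.0907 to 0.154).

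The number of calls in IP was small and depended on the libraries in the fit. With only the 6 IP libraries it was 32 (19 higher, 13 lower), and without the input libraries numbered 3 it was 23 (14 higher, 9 lower). With the replicate number as a block within each fraction it was 22 (15 higher, 7 lower), and all 6 intervals above were among each of these. Leaving out naive or injured IP library 3 left 3 calls, and leaving out injured input library 3 gave 14.

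**Figure D2:**
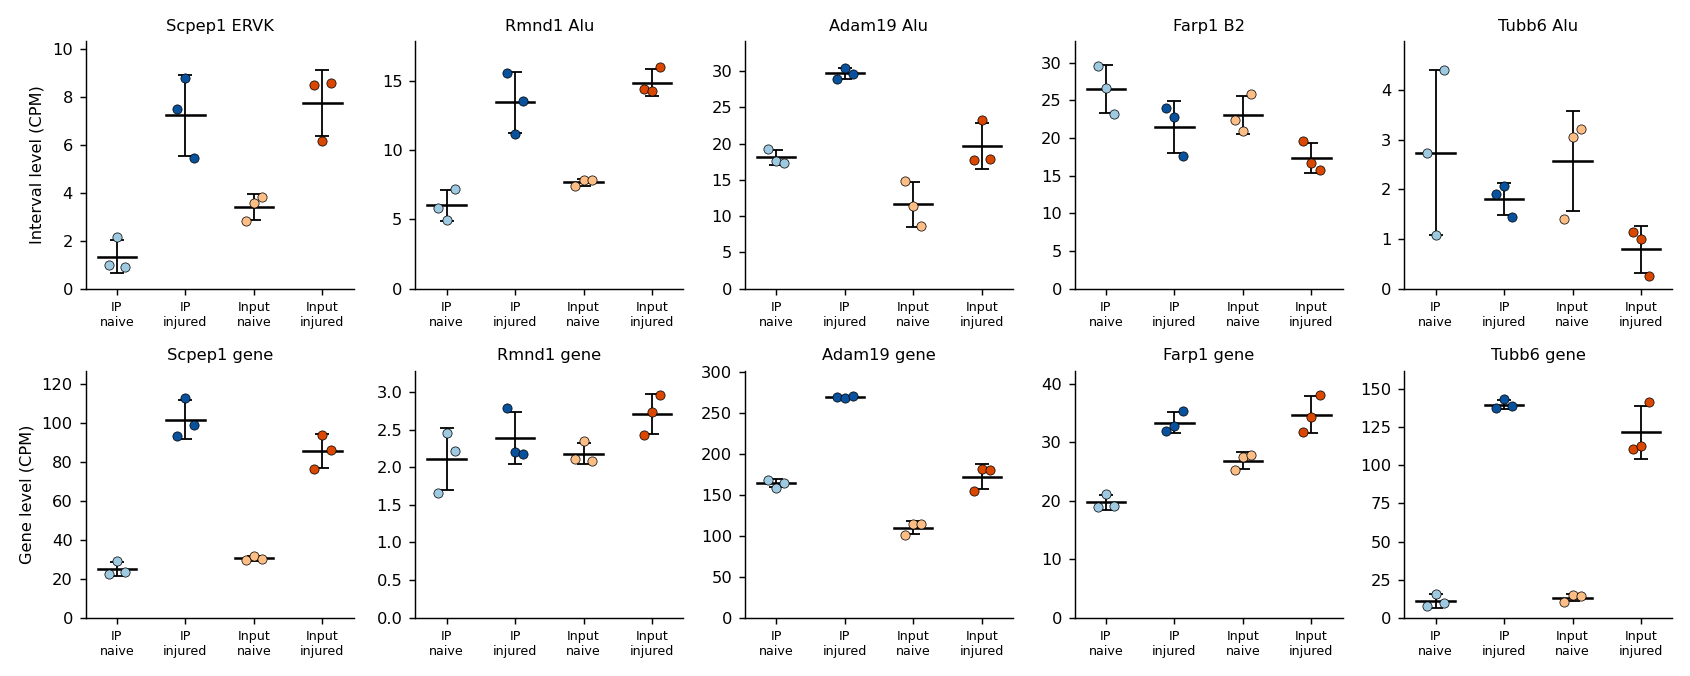
Level in CPM of 5 transposon intervals (top) and of their genes (bottom) in the 4 groups, with a point per library, a line for the mean and bars of 1 SD (n = 3). The Scpep1 and Adam19 intervals rise after crush with their genes, the Rmnd1 interval rises while its gene stays between 1.65 and 2.96 CPM, and the Farp1 and Tubb6 intervals do not rise while their genes do.

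The second comparison asked the same of whole ganglion RNA. In input, 8 intervals rose and 2 fell after crush, which is 0.996% of 1004, against 2.9% of all intervals tested. A further look at unadjusted p-values gave 78 under 0.05, and the median change was 0.01. Scpep1, Rmnd1, Adam19 and Fgf3 were called in both fractions. The other 4 that rose were all B2 intervals, those of Tmem203, 1110006O24Rik, Mpv17l and Dennd5b, and none of their genes was called. The interval of 1110006O24Rik was under the level set for named intervals and was named after its values were seen. B2 made up 210 of the 1004 tested intervals, and the 4 that rose are 1.9% of these. Of all intervals tested, 2.26% rose. Set against their genes, the intervals of Dennd5b, Mpv17l and 1110006O24Rik changed by 0.88, 1.43 and 2.04 in input. None of these relative changes was called, while that of Tmem203 was. In the comparison of injured with naive input, fewer or more cells of a type and less or more RNA per cell cannot be told apart. Markers of other cells moved with it: the 9 macrophage markers summed to 208.3 to 264.8 CPM in naive and 378.5 to 477.7 CPM in injured input, and 5 of them rose. The 10 fibroblast markers summed to 2274 to 2757 and 3033 to 3494 CPM, with none called. The 20 sensory neuron markers summed to 22010 to 22420 and 18880 to 21600 CPM, of which 1 rose and 11 fell. Sums overlapped for satellite glia (4208 to 4455 and 4397 to 4930 CPM, 1 of 10 rose), Schwann cells (4288 to 5562 and 4266 to 5414 CPM, none called) and endothelium (306.3 to 315.1 and 309.4 to 338.1 CPM, none called). None of these markers was at 0, and their part in the interval results was not tested.

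Tmem203, a protein of the endoplasmic reticulum membrane, had a B2 interval beyond its 3′ UTR at chr2:25257591-25257616 (plus). It stood at 2.00, 2.21 and 3.22 CPM in naive and 9.63, 8.75 and 13 CPM in injured input. In IP it stood at 0.585, 2.13 and 1.41 CPM in naive and 1.75, 2.39 and 0.799 CPM in injured ganglia. The input groups did not overlap, and the IP groups did. The interval rose in input by 2.07 (SE 0.385, adjusted p = 0.00119), a call kept under all 21 alternatives. The change of the gene was -0.11 (adjusted p = 0.652), and those of the 2 repeat-free intervals of its 3′ UTR window were -0.47 and -0.02, neither called.

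Dennd5b, an exchange factor for Rab GTPases, carried a B2 interval at 5.60, 7.32 and 10.9 CPM in naive and 14.9, 15.5 and 19.4 CPM in injured input. In IP it stood at 2.99 to 4.80 CPM in naive and 2.71 to 3.35 CPM in injured ganglia. Every injured input library was above every naive one, and the gene, at 35.7 to 51.2 CPM in all 12 libraries, changed by 0.03 (adjusted p = 0.903). The interval rose in input by 1.06 (SE 0.268, adjusted p = 0.0212). This call was lost without naive input library 1 or 2 or injured input library 3 (adjusted p 0.0772 to 0.151).

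Mpv17l, a protein of mitochondria and peroxisomes, carried a B2 interval at 3.60, 4.93 and 2.41 CPM in naive and 6.42, 9.14 and 10.1 CPM in injured input. It rose by 1.20 (SE 0.328, adjusted p = 0.0379), beside -0.31 for the gene, which was not called and stood at 14.8 and 10.6 CPM in the input libraries numbered 3 against 19.3 to 26 CPM in the other 4. Leaving out 1 library ended the call for 7 of the 12 (adjusted p 0.0533 to 0.14), and without the input libraries numbered 3 the change was 0.85. The B2 interval beyond 1110006O24Rik, a gene without an assigned function here, had 1.20, 0.510 and 0 CPM in naive and 2.83, 5.37 and 5.16 CPM in injured input. It rose by 2.91 (adjusted p = 0.00832), and the gene, under 1 CPM in all libraries, changed by 0.85 (adjusted p = 0.137). Without naive input library 2 the call was lost (adjusted p = 0.0546).

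**Figure D3:**
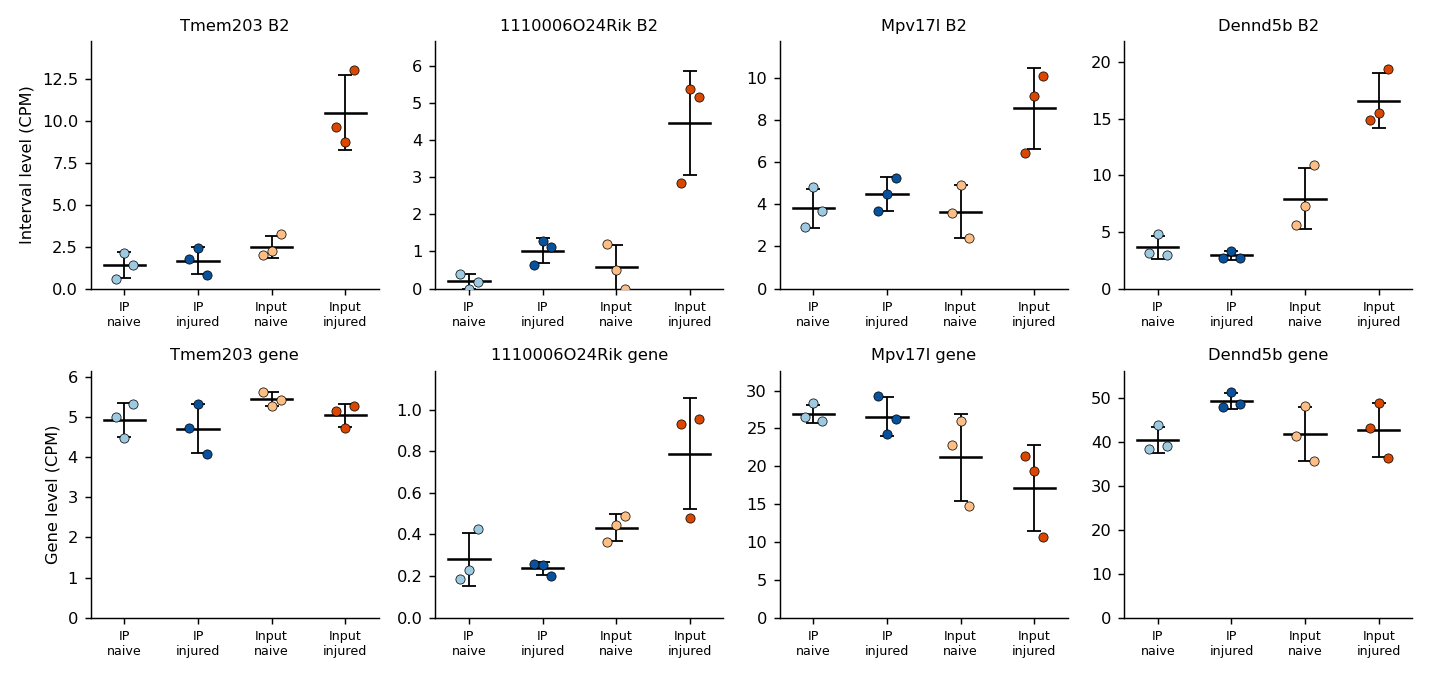
Level in CPM of the 4 B2 intervals that rose in input after crush (top) and of their genes (bottom), with a point per library, a line for the mean and bars of 1 SD (n = 3). In each upper panel the 3 injured input libraries are the highest, while none of the 4 genes was called. For the change after crush set against the gene, only the Tmem203 interval was called.

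Over all 210 B2 intervals in 3′ UTR windows, however, the median change in input was 0.05 and 115 changed upward, which is 54.8%. Among 760 B2 intervals outside 3′ UTR windows, 134 rose and 1 fell in input, which is 17.8%, against 2.9% of all intervals tested. Their median change was 0.71. In IP 26 of them rose and 0 fell, which is 3.42% against 2.44%, and their median change was 0.35. All B2 intervals in 3′ UTR windows together had 1640 ± 56.0 CPM in naive and 1779 ± 54.5 CPM in injured input (SD, n = 3), and 1601 ± 59.0 and 1637 ± 66.5 CPM in IP. The input groups did not overlap, at 1575 to 1672 against 1729 to 1837 CPM, but the exact permutation test of 3 against 3 cannot go below 0.1, the value it gave, and after adjustment over 32 such tests it was 0.32. These sums cover all 991 B2 intervals, tested or not. Set against the counts of their own genes, the 206 B2 intervals that were tested and had a tested gene took 13.5 to 16 reads per 1000 in naive and 13.4 to 16.1 in injured input. For all members together and for the other families except L1, the lowest adjusted p over the 4 comparisons was also 0.32. For L1 it was 0.64. The value of 0.32 was shared by every comparison whose groups did not overlap, at the smallest p these groups allow. Besides B2 in input, these were Alu, B4 and all members in the naive fraction contrast and B2 and ERV1 in the injured one. ERVK and ERVL-MaLR did not overlap in both.

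Of the 2 intervals that fell in input, 1 is reported here, and it followed its gene. Rasgrp1, a Ras activator, carried an Alu interval at 25.7 to 28.6 CPM in naive and 11.5 to 19.3 CPM in injured input. It fell by 0.76 (adjusted p = 0.0208), beside a fall of the gene by 0.70, and the call was lost without naive input library 1 or 2 or injured input library 3 (adjusted p 0.0658 to 0.0933).

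Of the 10 calls in input, 5 remained within scaling by the gene counts, and 3 remained without the input libraries numbered 3. With the replicate number as a block within fraction there were 24 (18 higher, 6 lower), which held all 10. Leaving out naive input library 1 or 2 gave 5 calls each, of which 5 and 4 were among the 10, and leaving out injured input library 1 gave 15. The interaction, which asks whether crush changed an interval differently in IP than in input, was called for 0 of 1004 intervals, with 28 at an unadjusted p under 0.05, and for 0.0% of all intervals. DESeq2 also called 0, with 21 at an unadjusted p under 0.05. Of the genes, 1 of 2378 was called, against 0.0635% of all genes, and with the block within fraction 33 were (30 higher, 3 lower), beside 262 higher and 20 lower of all genes. The rise of the B2 intervals in input is therefore not shown to differ from their change in IP, and for Tmem203 the IP change minus the input change was -1.83 (adjusted p = 1.0).

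The change of an interval was compared with that of its gene for 964 intervals of 799 genes. In IP the changes after crush correlated at r = 0.575, in input at 0.509, and the IP-to-input differences at 0.745 in naive ganglia. These are descriptions, since an interval and its gene share libraries and may share reads. The direction was the same for 71.0% of intervals in IP and 65.2% in input. Where the gene was called, it was the same for 89.9% of 159 and 77.5% of 151. In IP 221 of 2378 tested genes with such an interval rose and 151 fell, which is 15.6%, against 18.7% of all 15748 genes. In input 154 rose and 179 fell, which is 14.0% against 16.0%. Without the input libraries numbered 3, 308 rose and 345 fell in IP, and 225 rose and 125 fell in input. Without naive input library 3 alone, 195 rose and 102 fell in input. With the block within fraction, 479 rose and 387 fell in IP, and 346 rose and 492 fell in input.

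**Figure D4:**
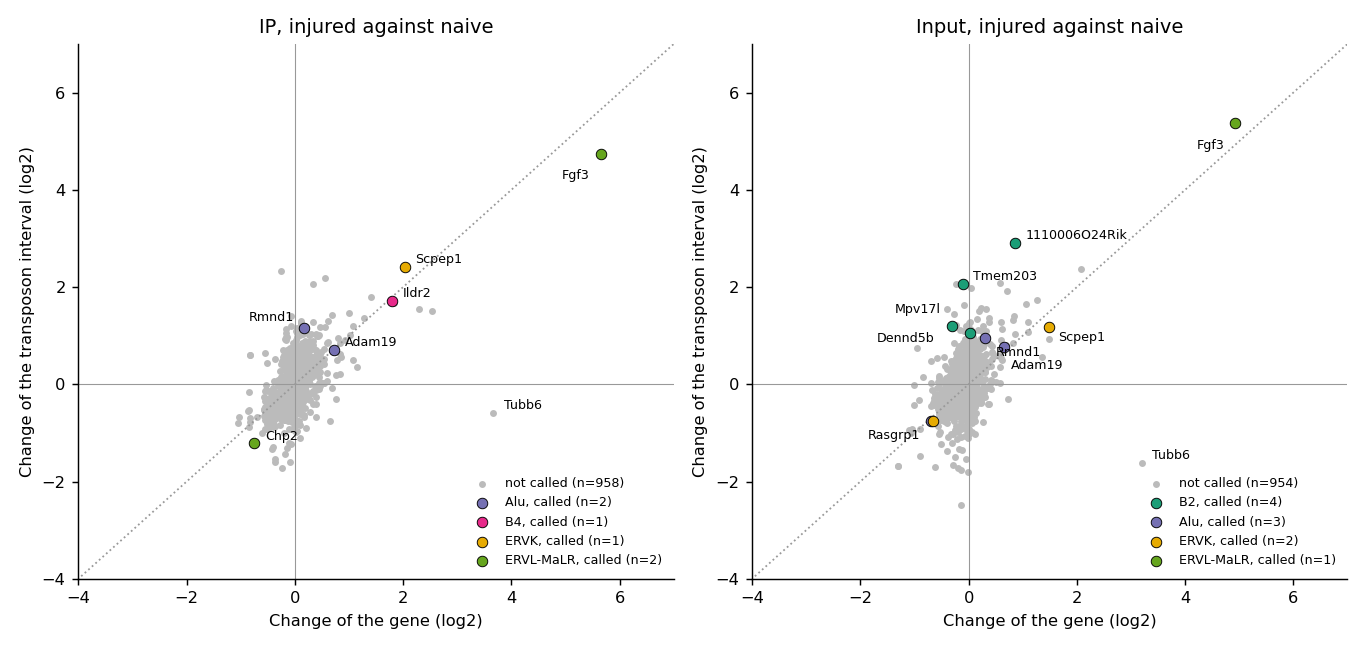
Change after crush (log2) of each of 964 transposon intervals against the change of its gene in IP (left) and input (right), with called intervals coloured by family and a dotted line where both are equal. In IP the called Rmnd1 interval lies above the line and Fgf3 below it, the 4 B2 intervals called in input lie above it, and Tubb6 lies far below it in both panels.

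To test an interval against its gene, its counts were fitted with the gene's counts in the same library as an offset, over all 20836 intervals of 3′ UTR windows. In IP 0 were relatively higher and 2 lower after crush, which is 0.207% of 964, against 0.0336% of all fitted. In input 1 was higher and 1 lower, also 0.207%, against 0.0288%. These 3 intervals were those of Farp1, Tubb6 and Tmem203, and all 3 lie beyond the 3′ UTR.

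Tubb6, a beta tubulin, rose as a gene by 3.67 in IP and 3.20 in input, from 7.44 to 15.8 CPM in naive IP to 138 to 143 CPM in injured IP. The Alu interval beyond its 3′ UTR stood at 2.73, 1.07 and 4.40 CPM in naive and 1.91, 2.07 and 1.44 CPM in injured IP. In input it stood at 1.4, 3.06 and 3.22 CPM in naive and 1.13, 0.994 and 0.245 CPM in injured ganglia. It did not rise with the gene, and its change against the gene was -4.40 in IP (SE 0.541, adjusted p = 1.25e-05) and -4.85 in input (SE 0.609, adjusted p = 1.96e-05). Both calls were kept under all 20 alternatives. The repeat-free interval of the same gene rose by 2.37 and 2.43. Tubb6 is on the list of 40 regeneration-associated genes, of which 36 of 39 tested rose in IP and 34 in input. Of all genes tested, 11.5% rose in IP and 7.79% in input. Tubb6 is the one gene of that list with a tested transposon interval.

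Farp1, an exchange factor for small GTPases in neurites and synapses, had a B2 interval beyond its 3′ UTR at 29.6, 26.7 and 23.2 CPM in naive and 24, 22.8 and 17.6 CPM in injured IP. The gene rose by 0.76, from 18.9 to 21.2 CPM up to 32.0 to 35.4 CPM, and its 4 repeat-free intervals changed by 0.48 to 1.13. Against its gene the interval fell by 1.07 in IP (SE 0.170, adjusted p = 0.00219), a call lost without naive IP library 1 or injured IP library 3 (adjusted p = 0.0545 and 0.059). In input the relative change was -0.89 and was not called (adjusted p = 0.0554). The Tmem203 B2 interval rose against its gene in input by 2.02 (SE 0.348, adjusted p = 0.00541), a call lost without naive input library 2 (adjusted p = 0.0872).

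The remaining comparisons set IP against input. In naive ganglia 30 of 1004 intervals were higher and 39 lower in IP, which is 6.87%, against 10.3% of all intervals tested. In injured ganglia 20 were higher and 42 lower, which is 6.18% against 10.4%. Both splits depend on the scaling: by library size alone, which shifts the median of all intervals by 1.62 in naive ganglia, 851 were higher and 14 lower, and when scaled as the genes were, 11 were higher and 40 lower. The split also rests on single libraries, with 6 higher and 30 lower without naive IP library 1, 7 and 34 without naive IP library 3, and 9 and 31 without naive input library 3. In injured ganglia, 813 were higher and 14 lower by library size alone, 35 and 34 when scaled as the genes were, 42 and 35 without injured input library 2, and 4 and 38 without injured IP library 1. Without the input libraries numbered 3, 33 were higher and 31 lower in naive ganglia, and 26 and 38 in injured ganglia. With the replicate number as a block over all libraries, 42 were higher and 41 lower in naive ganglia, and 38 and 44 in injured ganglia. Of the genes with such an interval, 293 were higher and 574 lower, which is 36.5% against 41.1% of all genes, and without the input libraries numbered 3 there were 560 higher and 560 lower. The median difference of the 1004 intervals was 0.13. The 39 that were lower in naive ganglia included intervals of glial, fibroblast and extracellular matrix genes. Markers of other cells moved with this contrast over their whole lists. The 10 satellite glia markers summed to 515.2 to 973.8 CPM in naive IP and 4208 to 4455 CPM in naive input. The 10 myelinating Schwann cell markers summed to 797.9 to 1139 against 4288 to 5562 CPM, the 10 fibroblast markers to 157.9 to 388.2 against 2274 to 2757 CPM, the 9 macrophage markers to 19.16 to 44.89 against 208.3 to 264.8 CPM, and the 10 endothelial markers to 111.9 to 140.2 against 306.3 to 315.1 CPM. The 20 sensory neuron markers summed to 25480 to 26360 against 22010 to 22420 CPM. Ncmap and Mfap5, named next, are themselves markers of Schwann cells and fibroblasts. None of these markers was at 0, and their part in the interval results was not tested.

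Mfap5, a protein of elastic microfibrils, carried a B2 interval at 0, 1.24 and 0.704 CPM in naive IP and 11, 8.17 and 12.7 CPM in naive input. The difference was -3.94 (SE 0.447, adjusted p = 3.76e-07), beside -3.50 for the gene. Ncmap, a protein of Schwann cell myelin, carried a B4 interval at 0.176 to 1.24 against 8.04 to 8.60 CPM, with a difference of -3.88 beside -3.11 for the gene. The ERV1 interval of Plin3, a lipid droplet coat protein, was at 0.356 to 0.780 against 5.27 to 8 CPM and differed by -3.33. The Alu interval of Fbln2, an extracellular matrix fibulin, was at 1.94 to 2.92 against 16.3 to 25.7 CPM and differed by -3.06 (adjusted p = 6.94e-09). These groups did not overlap. Intervals of Pla2g16 (ERVL-MaLR), Nid1 (B4) and Cp (ERVK) followed at -2.80, -2.75 and -2.62. The 7 genes differed by -3.50 to -2.08, and none of these intervals was called against its gene.

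Among those higher in naive IP, the Alu interval of Paqr5, a membrane progestin receptor, was higher by 1.27 (adjusted p = 0.00777), beside 0.42 for the gene. That of Rasgrp1 stood at 61.2, 44.1 and 53.3 CPM in IP against 28.6, 27.4 and 25.7 CPM in input and was higher by 0.96 (adjusted p = 0.000441), beside 0.76. The B2 interval of Mmp25, a matrix metalloprotease, was higher by 0.92, the B4 interval of Golga3, a Golgi protein, by 0.90, and the Alu interval of Deptor, an mTOR inhibitor, by 0.89. The B2 intervals of Il31ra, an itch receptor subunit of sensory neurons, and Tmem200a were higher by 0.87 and 0.81, and the L1 interval of Tmem45b by 0.82. Those of Paqr5, Golga3, Tmem200a, Il31ra and Tmem45b lost the call without 1 of 2, 3, 3, 9 and 7 libraries. Of the 30 higher intervals, 10 were ERVL-MaLR copies on chromosome 2 beyond 3 gene models, Gm8898, Gm14431 and Gm14436, at 28.5 to 31.1 CPM each. Some of them had exactly the same counts in all libraries, and they cannot be read as separate regions.

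**Figure D5:**
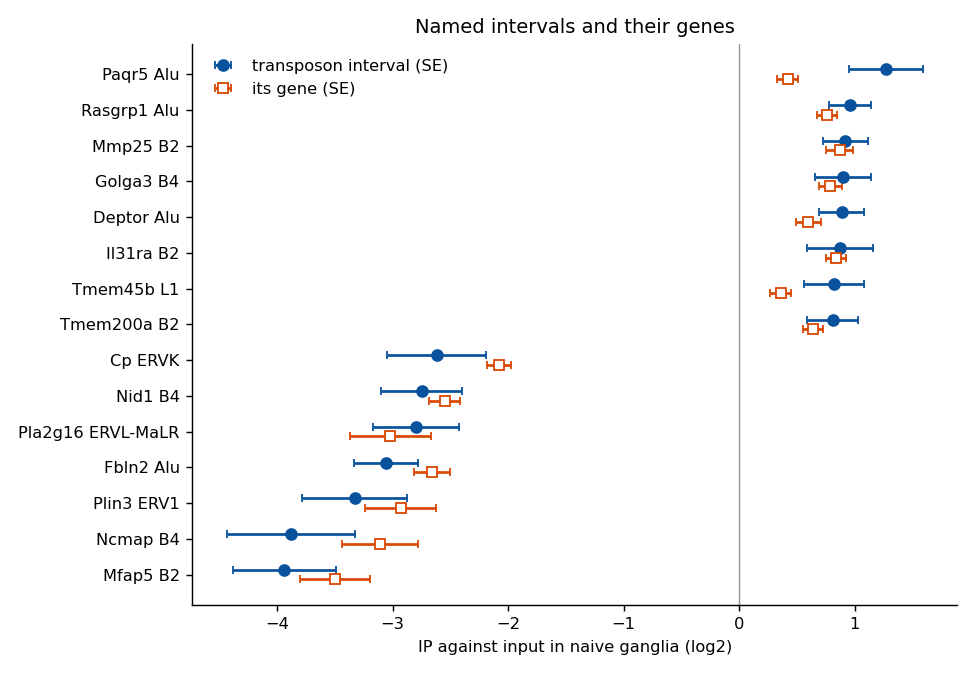
Difference between IP and input in naive ganglia (log2, with SE) for 15 named transposon intervals and their genes. The 7 lower intervals lie between -3.94 and -2.62 and the 8 higher between 0.81 and 1.27, each on the same side of 0 as its gene.

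Against their genes, 5 intervals were higher and 5 lower in naive IP, which is 1.04% of 964, against 1.95% of all fitted. In injured ganglia 2 were higher and 6 lower, which is 0.83% against 0.706%. B2 gave 5 of the 10 in naive ganglia, 3 higher and 2 lower, which is 2.43% of 206 B2 intervals, against 1.95% of all fitted. The Dennd5b interval differed against its gene by -1.11 in naive ganglia (SE 0.291, adjusted p = 0.0325) and by -2.60 in injured ganglia (SE 0.276, adjusted p = 1.02e-07), while the gene differed by -0.05 and 0.20 and was called in neither. The call in naive ganglia was lost without naive IP library 1 or 3 or naive input library 3 (adjusted p 0.165 to 0.281), and that in injured ganglia was kept under all 19 alternatives. In injured ganglia the Tmem203 interval differed against its gene by -2.44 (adjusted p = 6.26e-05) and the Mpv17l interval by -1.52 (adjusted p = 0.00525). Mpv17l lost the call without injured IP library 1 or injured input library 3 (adjusted p = 0.0674 and 0.0941). A lower level in IP was common among the 760 B2 intervals outside 3′ UTR windows, not set against a gene. There 53.9% were called lower in naive and 73.3% in injured ganglia, against 7.8% and 8.1% of all intervals tested. Their median differences were -1.81 and -2.30, beside 0.05 and 0.08 for B2 intervals in 3′ UTR windows.

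Other intervals called against their gene were chosen after their values were seen. The ERVK intervals beyond 3110002H16Rik differed by -1.66 and -1.43 in naive ganglia, and both also lie in exons of Npc1. The repeat-free interval of the same gene also differed against it, by -1.50 in naive ganglia. The Alu interval of Mfsd4 differed by -1.60 in injured ganglia, and the repeat-free interval beyond Mfsd4 differed against the gene by -1.49. The departure from these 2 genes was thus not particular to the transposon intervals. The B2 interval beyond B230312C02Rik differed by -1.86 in naive ganglia. The ERVL-MaLR and B2 intervals of H2-T24, a class I gene with close relatives, were higher by 1.81 and 2.00 in naive ganglia. The intervals themselves differed by -0.06 and 0.19, and the gene by -1.88. The differences of the B2 interval of Dqx1 and the Alu interval of Tspan15 were 1.70 and 1.48, and that of the Alu interval of Rpl7l1 was -0.84. The Dqx1 gene stood at 0.0852 to 0.644 CPM over the 12 libraries, and the H2-T24 gene at 0.280 to 0.578 CPM in naive IP. The fit takes the count of the gene as exact, so calls against genes this low are uncertain. The calls of B230312C02Rik, Dqx1, Tspan15, Rpl7l1 and both of H2-T24 were each lost without at least 1 library, in naive ganglia for 3, 4, 8, 9, 3 and 2 of the 12.

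Genes of 4 fixed lists carried few such intervals. As the background for the list counts, 11.5% of all genes tested rose and 7.12% fell in IP. In input 7.79% of all genes tested rose and 8.26% fell. Of 33 potassium channel genes, 1 rose and 22 fell in IP and 2 rose and 24 fell in input. They carried 6 intervals, of which 2 were tested. The Kcns1 interval, which holds AATAAA, stood at 29.2 to 35.4 CPM in naive and 16.7 to 23.9 CPM in injured IP. Its change of -0.68 was not called (adjusted p = 0.0516), beside a fall of the gene by 0.69. Of 24 genes for RNA polymerase III, which transcribes short interspersed elements, 5 rose in IP and 1 rose and 1 fell in input, and none of their 5 tested intervals was called after crush.

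Of 29 genes that silence retroelements, 4 rose in IP, and 3 rose and 1 fell in input. Their 2 tested intervals, those of Cbx5, a heterochromatin protein, and Zfp809, a zinc finger protein that binds retroviral DNA, were not called. Of 29 genes that bind repeat or double-stranded RNA, 3 rose in each fraction. Their 4 tested intervals were not called after crush and include those of 2 sensors of double-stranded RNA. The change of the ERVL-MaLR interval of Ifih1 was 0.49 in IP and that of Eif2ak2 -0.24.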

How the data were processed

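Per the labels' protocols, RNA purified on RNeasy Mini columns was made into strand-marking libraries after removal of ribosomal RNA. The tools (bcl2fastq 2.17, HTSeq, STAR) and builds (mm10, GRCm38) come from the submitters' processing notes, which do not say which served which table. The authors deposited raw read counts per gene and per interval for all 12 libraries, and groups and replicate numbers came from the sample titles. Columns that belong to no sample numbered 0. A further 4 lines of the interval table were empty and not used, and names turned into dates took 0.191% to 0.214% of the gene counts and were left out.

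Counts were tested with edgeR 4.0.16 (R 4.3.3, quasi-likelihood, robust) in 1 fit of 4 group means with 8 residual degrees of freedom. TMM factors and filterByExpr (minimum count 10) were applied to each whole table, and Benjamini-Hochberg adjustment at 0.05 ran over all 24100 intervals or 15748 genes. Levels are CPM within each table, and the interval table's TMM factors ranged from 1.4 to 1.91 over IP libraries and from 0.474 to 0.828 over input libraries. Intervals relative to genes were fitted with log(gene count + 1) as offset. The code was tested on simulated data. Nothing in the labels says that libraries are separate animals, so p-values measure the spread between these libraries.

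Within a fraction, gene levels of same-numbered libraries deviated together (correlations 0.191 to 0.597 over 3 pairs each). For interval levels this was weaker, with correlations of same-numbered pairs between 0.004 and 0.366. Naive input library 2 and injured input library 1, which differ in number, reached 0.304 there and 0.206 for genes. The numbers may therefore pair injured with naive libraries, but what a shared number stands for was not tested. The fit of 4 group means does not use the numbers, and counts with the replicate block are given beside it. Named intervals were the 8 largest called changes in each direction with at least the median level and no overlap of groups, the 6 largest relative to the gene, the 2 highest of each family, and those of the gene lists. Others are marked as named after their values were seen, and a few intervals that the rule names are not reported here. The members, lists and tests were chosen with earlier results of these data known.

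Alternatives were DESeq2 1.42.0, library size alone, gene table scaling, no or a stricter filter (minimum count 50), only the libraries compared, the replicate block, limma 3.58.1 on log ratios (0.5 added), and leaving out each library. Leaving out both input libraries numbered 3 or both naive libraries numbered 2 was added after seeing the data. Sequences came from GENCODE M21 transcripts, so intervals outside exons have none here.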

Additional observations from a re-analysis of the deposited data

Results flagged for a closer look

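Bach1, a transcription repressor whose gene has 1 transposon interval in its 3′ UTR window, too low in counts to test, was the one gene with such an interval whose injury change differed between the fractions by a test of the difference, in the fit without the replicate block. The injury change in IP exceeded that in input by 0.78 on the log2 scale (SE 0.121, adjusted p = 0.0388, edgeR's quasi-likelihood test). The gene rose by 1.82 in IP, from 20.2 to 71.3 CPM, and by 1.05 in input, from 32.6 to 67.2 CPM. Leaving out 1 library ended the call for 11 of the 12 (adjusted p 0.0677 to 0.192), and it was kept without injured input library 3 (adjusted p = 0.036). Over these, the difference ranged from 0.71 to 0.83. Without the input libraries numbered 3 the adjusted p was 0.0484, and without the naive libraries numbered 2 it was 0.176. With the replicate block within fraction the adjusted p was 1.08e-07, and 33 genes with such an interval were called, 30 higher and 3 lower.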

How the results depend on the processing

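Of 54 calls on named intervals, 23 were kept under every alternative run, 31 were lost under at least 1, and none reversed. With a minimum count of 50 the injury calls in input fell from 10 to 4, the fraction calls to 19 and 19, and the calls relative to genes to 1 (injury, IP), 0 (injury, input), 4 (naive fraction) and 2 (injured fraction). Without a filter the relative calls in input were 5. With library size alone, which moved the median of all intervals by 1.62 log2 in the naive and 1.51 in the injured fraction contrast, injury calls were 2 in IP and 4 in input, and fraction calls were 865 (851 higher, 14 lower) and 827 (813 higher, 14 lower). Gene table scaling gave 6 injury calls in input (3 higher, 3 lower) and 51 naive fraction calls (11 higher, 40 lower). With only the libraries compared, injury calls were 32 in IP and 3 in input. On log ratios with limma, relative calls were 1 (injury, input) and 6 (naive fraction). The cause of these moves was not tested.

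With the replicate block over all libraries, injury calls in IP were 11. With the replicate block within fraction they were 22 in IP and 24 in input, and called genes among those with an interval were 866 and 838 in place of 372 and 333, and 33 in place of 1 for the interaction. Over all intervals, injury calls were then 898 higher and 361 lower in IP and 985 and 489 in input.

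Without the input libraries numbered 3, injury calls were 23 in IP and 5 in input, relative calls 1 (injury, input) and 5 (injured fraction), and called genes 653 in IP. Without the naive libraries numbered 2, injury calls in input were 6, relative calls in the naive fraction 6, and called genes in input 203. Leaving out each library in turn, injury calls ranged from 3 (without naive or injured IP 3) to 14 (without injured input 3) in IP and from 5 (without naive input 1 or 2) to 15 (without injured input 1) in input. Fraction calls ranged from 36 to 88 in naive ganglia, with 36, 41 and 40 without naive IP 1, naive IP 3 or naive input 3, and from 42 to 79 in injured ganglia. Relative calls ranged from 1 (without naive IP 1 or injured IP 3) to 2 for injury in IP, from 1 (without naive input 2) to 6 (without injured input 1) in input, from 3 (without naive IP 1 or 3) to 14 in the naive fraction, and from 6 to 9 in the injured fraction. Called genes ranged from 236 to 475 in IP, with 236, 244, 247 and 240 without naive IP 1, naive IP 3, injured IP 2 or injured IP 3, from 194 (without naive input 1) to 322 in input, and from 692 to 1002 in the naive fraction. The interaction of the intervals was called for 0 under all these settings.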
